A study of Homo sapiens with 4 samples.

Results

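The 10 genes described here encode transcription factors and cofactors of the red cell lineage and of blood stem and progenitor cells: GATA1, KLF1, TAL1, GFI1B, NFE2, LMO2, LDB1, GATA2, SPI1 and RUNX1. They were chosen by name, as 10 of 19970 protein-coding genes with an annotated start on chromosomes 1 to 22 and X, and every CpG within each gene (GENCODE bounds, hg38) or 10 kb of it was taken. The CpGs covered in all libraries numbered 15544 of 23269121. The cells were HUDEP-2, an immortalised line of human erythroid precursors that makes adult haemoglobin, and their DNA was read by bisulfite sequencing of the whole genome. Bisulfite turns unmethylated cytosine into a base read as T and leaves methylated cytosine as C, and the methylation level of a CpG is the percentage of its reads that show C.

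There were 4 libraries, 1 for each group. One came from non-differentiated cells labelled untreated. The others came from cells grown for 4 days under differentiation and then matured for 2 days, in 0.1% DMSO that was present from expansion onward, with the vehicle alone, with an inhibitor of DNMT1 or with an inhibitor of EED. DNMT1 is the enzyme that copies CpG methylation to newly made DNA, and EED belongs to Polycomb repressive complex PRC2, which puts methyl groups on lysine 27 of histone H3. All cultures contained doxycycline, and both inhibitor groups are labelled as having raised fetal haemoglobin. Compound names and doses are not given in the sources used here. Differentiation, its duration and the DMSO vehicle cannot be told apart in the comparison of DMSO with non-differentiated cells.

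GATA1, KLF1 and NFE2 activate red cell genes, among them the globins. TAL1 binds E-box sequences and joins GATA factors on DNA through the bridging proteins LMO2 and LDB1, while GFI1B is a repressor that recruits histone-modifying enzymes. GATA2 precedes GATA1 in the lineage and is replaced by it on many sites, SPI1 (PU.1) drives myeloid and lymphoid fates, and RUNX1 is needed for the formation of blood stem cells. CpG-rich promoters in mammals are commonly free of methylation whether or not the gene is transcribed, whereas the bodies of genes and the DNA between them are usually methylated.

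Because each group had 1 library, every test below compares the reads of 2 libraries and not the conditions, and the 95% Wilson intervals cover counting error only. A read that spans several CpGs is counted at each, which intervals and tests ignore except where reads were divided by the number of CpGs. Methylated and unmethylated reads were compared with Fisher's exact test (two-sided), and p was adjusted by Benjamini-Hochberg over all units of the kind in the genome. A unit was called when its adjusted p was under 0.01 and its level differed by at least 25 percentage points. Unless named otherwise, a run of 4 values gives the non-differentiated library first, then DMSO, then the inhibitor of DNMT1 and last that of EED. Over all shared CpGs the levels were 61.7%, 60.3%, 16.8% and 59.3%, and mean coverage of a listed CpG ran from 27.2 to 29.7 reads. No RNA was measured in these libraries. Promoter methylation did not set the erythroid label apart: in DMSO the promoters of 6 erythroid marker genes lay between 15.2% and 83.5%, and those of 8 T cell, B cell, myeloid and fibroblast marker genes between 6.80% and 81.7%.

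Short stretches of hg38 sequence that lie upstream of member genes and were low in methylation in the cells without DNMT1 inhibitor are shown first, because they hold the letters that GATA factors and the TAL1 complex are known to bind. Capitals mark AGATAA or TGATAA, or CTG followed by 7 or 8 bases and GATAA (E-box with GATA), on either strand. These matches can overlap one another, and a match is a description of letters only. Each is written 5′ to 3′ on the strand of its gene, and the 4 were picked after the matches and levels were seen. They are the KLF1 upstream region at chr19:12887202-12887451 (minus strand, the 250 bases before the start), the centre of a stretch at -2.30 kb from the GATA1 start at chrX:48784136-48784435 (plus strand), the centre of a stretch at -2.39 kb from the GATA2 start at chr3:128495442-128495741 (minus strand), and the centre of a stretch at -7.16 kb from the TAL1 start at chr1:47239237-47239536 (minus strand).
KLF1 upstream: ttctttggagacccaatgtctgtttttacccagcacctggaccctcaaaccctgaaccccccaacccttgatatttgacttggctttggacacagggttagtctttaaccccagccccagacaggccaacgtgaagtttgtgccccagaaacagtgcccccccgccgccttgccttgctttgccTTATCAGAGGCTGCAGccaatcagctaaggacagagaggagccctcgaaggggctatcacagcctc
GATA1 upstream stretch: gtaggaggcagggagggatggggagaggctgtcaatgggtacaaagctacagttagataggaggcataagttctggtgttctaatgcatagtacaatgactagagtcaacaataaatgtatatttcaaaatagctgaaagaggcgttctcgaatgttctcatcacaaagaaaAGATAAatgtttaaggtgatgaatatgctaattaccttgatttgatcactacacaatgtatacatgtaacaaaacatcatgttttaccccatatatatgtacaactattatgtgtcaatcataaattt
GATA2 upstream stretch: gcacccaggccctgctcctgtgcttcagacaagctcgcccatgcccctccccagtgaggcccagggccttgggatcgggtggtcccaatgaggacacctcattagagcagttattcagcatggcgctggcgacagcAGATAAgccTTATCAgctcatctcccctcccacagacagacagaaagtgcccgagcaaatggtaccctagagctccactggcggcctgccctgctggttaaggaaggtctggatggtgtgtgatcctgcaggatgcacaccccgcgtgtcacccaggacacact
TAL1 upstream stretch: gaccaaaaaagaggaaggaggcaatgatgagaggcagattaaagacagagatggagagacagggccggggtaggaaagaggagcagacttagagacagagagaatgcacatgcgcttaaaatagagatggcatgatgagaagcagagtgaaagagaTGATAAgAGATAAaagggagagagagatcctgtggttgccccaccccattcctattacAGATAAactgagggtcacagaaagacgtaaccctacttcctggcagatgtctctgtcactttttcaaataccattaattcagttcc

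The KLF1 region holds an E-box with GATA on the strand opposite to the gene, and its 3 shared CpGs read 0%, 1.92%, 1.89% and 0% over 31 to 57 reads. In the GATA2 region a pair of GATA matches face opposite ways, 3 bases apart, and its 8 shared CpGs read 0.588%, 0%, 0% and 0.437%. The TAL1 region holds 3 GATA matches, with its 3 shared CpGs at 0%, 1.47%, 1.22% and 1.96%. All of these sat near 0 in every library. The GATA1 region has 2 shared CpGs, at 2.78%, 4.76%, 0% and 1.47%. Among all 19969 upstream regions of 250 bases, 10.3% held a GATA match and 0.826% an E-box with GATA, against 3 and 1 of the 10 members. Among the central 300 bases of 718760 low-methylated stretches genome-wide these shares were 33.9% and 2.07%, against 31.5% and 2.68% of the 448 stretches of all members (18 and 4 of 59 without RUNX1, a split made after the data were seen). The CACCC-type letters CCNCNCCCN, to which KLF factors bind, were in 18.5% of all stretches and in 35 of those 59, but in 64 of the 389 stretches of RUNX1, which made 99 of 448 (22.1%) for all members. They were in 67.3% of all upstream regions and 7 of the 10 of the members.

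Promoters were taken from 1000 bp upstream to 500 bp downstream of the MANE transcript start. In DMSO the 10 members ran from 0% to 24.5%, where the median of all 18118 tested promoters was 27.5%. In non-differentiated cells SPI1, at 35.4% by reads, was above the median of 28.3%, but it was at 14.2% with each CpG counted equally. The 5 shared CpGs needed for a test were present in 9 of the genes, and absent in GATA1. In the DMSO comparison with non-differentiated cells 0 of 9 were called (background 0% in either direction), with 1 of 9 at an unadjusted p under 0.05 (17.5% of all promoters). With the DNMT1 inhibitor 0 of 9 were called lower, against 43.7% of all promoters. None could be called, because no member promoter had the 25% in DMSO that a call needs, which 53.1% of all promoters had. At a smaller size 4 of 9 had an adjusted p under 0.01, as did 85.8% of all promoters, and with windows from 2000 bp upstream 4 of 9 were called (64.9% of all promoters). With the EED inhibitor 0 of 9 were called lower (background 0%) or higher (background 0.0221%), with 1 of 9 at an unadjusted p under 0.05 (21.2% of all promoters).

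**Figure D1:**
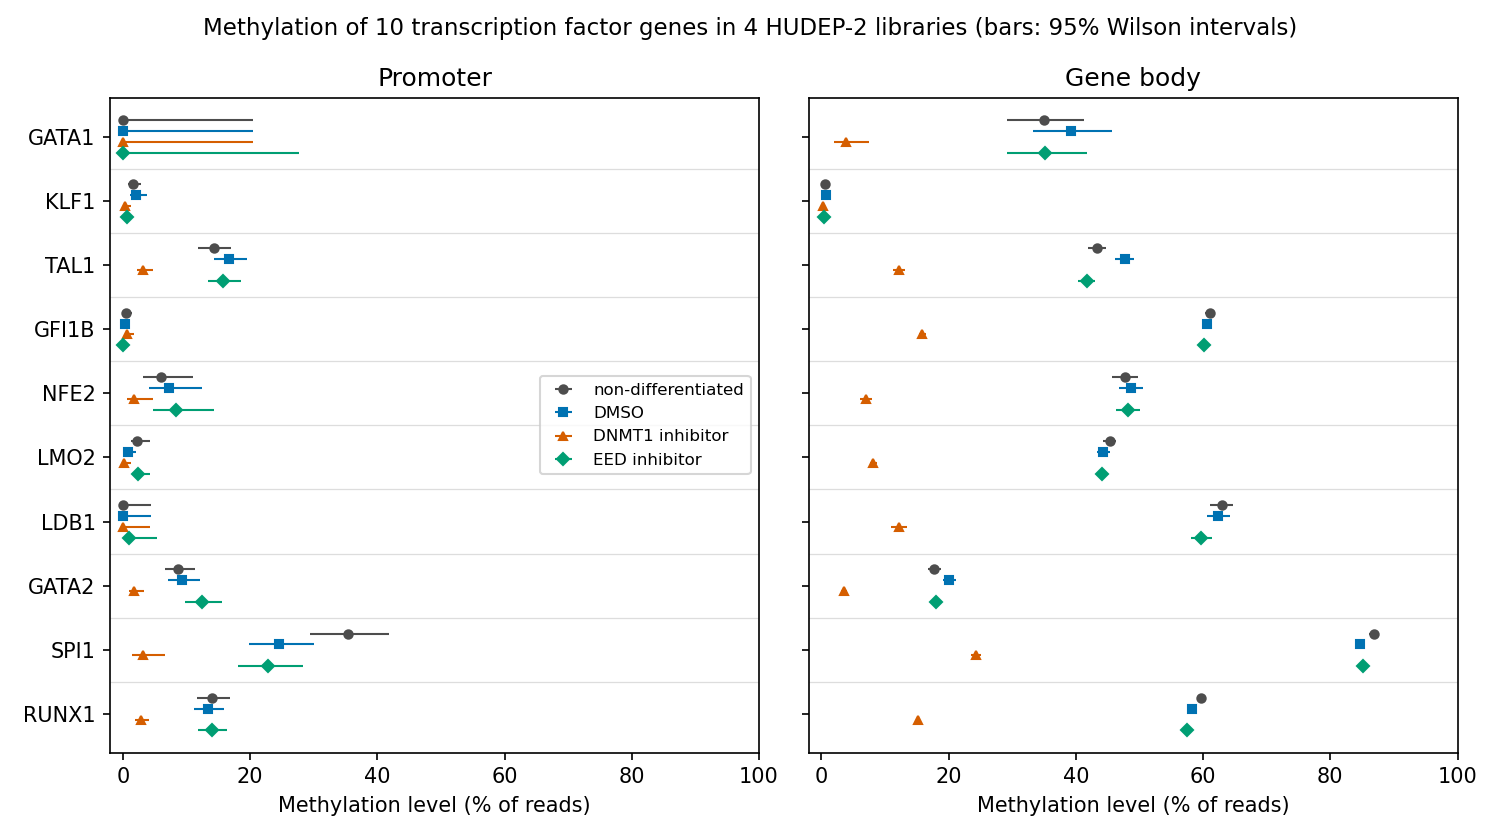
Methylation level of the promoter (left) and gene body (right) of each of the 10 genes, in percent of reads, with 1 marker per library and bars for the 95% Wilson interval. Promoters other than SPI1 lie under 20% in every library, and the DNMT1 inhibitor markers stand apart from the others in every gene body except that of KLF1.

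Among the red cell activators, the KLF1 promoter (22 shared CpGs) read 1.55%, 2.12%, 0.342% and 0.586%, with an interval of 1.19% to 3.76% in DMSO. The NFE2 promoter (9 CpGs) read 6%, 7.19%, 1.67% and 8.33%. All of its methylation but for single reads came from 1 CpG at -648 bp, which read 50.0%, 40.7%, 11.1% and 55.6% over 18 to 27 reads. Over every CpG listed in a library (11 to 26 of them) the NFE2 promoter read 5.20%, 3.18%, 1.36% and 3.46%. The GATA1 promoter was thinly covered. Only 1 of its 28 CpGs was shared, at 0% in each library over 10 to 15 reads. Counting every CpG listed in a library there, 0 of 126 reads were methylated in the non-differentiated library, 0 of 106 in DMSO, 1 of 178 with the DNMT1 inhibitor and 0 of 36 with the EED inhibitor. Counts of 0 at these depths allow up to 2.38%, 2.83% and, with the EED inhibitor, 8.33%, if reads are independent. A read is counted at every CpG it spans, so the real limits can be wider.

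In the TAL1 complex, the TAL1 promoter (32 CpGs) read 14.2%, 16.7%, 3.20% and 15.8%. Its shared CpGs (32 of 89) fell into separate parts. From -465 bp to the downstream end none exceeded 5.26% in any library, but no CpG between -172 and 363 bp was shared. Farther upstream, 5 of the 7 CpGs from -596 bp read over 70% in each library but that of the DNMT1 inhibitor. The TAL1 difference with the DNMT1 inhibitor was -13.5 points (adjusted p 1.68e-19 by Fisher's exact test). The LMO2 promoter, with all of its 18 CpGs shared, read 2.27%, 0.835%, 0.214% and 2.42%. LDB1 had 8 shared CpGs of 136 and read 0%, 0%, 0% and 0.971%. Within 250 bp of the LDB1 start, 0 of 50, 50, 53 and 61 reads were methylated, summed over 5 CpGs between -237 and -248 bp. Independent reads would allow 6%, 6%, 5.66% and 4.92%. Each of these CpGs had 10 to 13 reads and a read is counted at every CpG it spans, so the real limits are wider. The promoter of the repressor GFI1B (28 CpGs) read 0.499%, 0.288%, 0.660% and 0%, the only tested member promoter whose level with the DNMT1 inhibitor was not at or below that in DMSO, by 0.372 points and within counting error (adjusted p 0.458).

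Among the stem and progenitor factors, promoter methylation lay mainly upstream of the start. The GATA2 promoter (30 CpGs) read 8.66%, 9.23%, 1.74% and 12.4%, with a change of -7.49 points between DMSO and the DNMT1 inhibitor (Fisher's exact test, adjusted p 7.94e-08). Its 15 CpGs within 250 bp of the start read 1.12%, 2.15%, 0% and 2.86%, and the CpG at -349 bp read 33.3%, 64.7%, 9.09% and 43.5% over 17 to 24 reads. The RUNX1 promoter (20 CpGs) read 14.05%, 13.4%, 2.76% and 13.96%, with its 10 CpGs upstream at 26.1%, 26.3%, 4.85% and 28.3% and the 10 downstream at no more than 1.08%. Within 250 bp of the RUNX1 start the level was at most 0.806% in any library.

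By reads, SPI1 had the highest promoter level of the 10 in each library but that of the DNMT1 inhibitor: 35.4%, 24.5%, 3.08% and 22.7% over 12 CpGs, with intervals of 29.5% to 41.8% and 19.8% to 30.01% in the non-differentiated and DMSO libraries. Its 10 shared CpGs within 250 bp of the start read 0% everywhere except for 1 methylated read in DMSO (0.526% of 190 reads). No CpG between -101 and -833 bp was shared, and the level of the SPI1 promoter came from a pair of CpGs farther upstream. That at -833 bp read 84.6%, 79.5%, 10.5% and 89.3%, and that at -929 bp read 85.7%, 85.0%, 5.26% and 80.5%. The promoter was 10.8 points lower in DMSO than in non-differentiated cells (unadjusted p 0.0103, adjusted p 0.115, Fisher's exact test). The pair took 41.5% of the promoter's reads in the non-differentiated library and 29.4% in DMSO, and when each CpG counted equally the difference was -0.09 points. With these equal weights SPI1 read 14.2%, 14.1%, 1.32% and 14.1%, and was not the highest. TAL1 then read 15.8%, 14.4%, 3.05% and 15.1%. The SPI1 difference for the DNMT1 inhibitor was -21.5 points (adjusted p 2.15e-11), under the 25 points of a call.

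**Figure D2:**
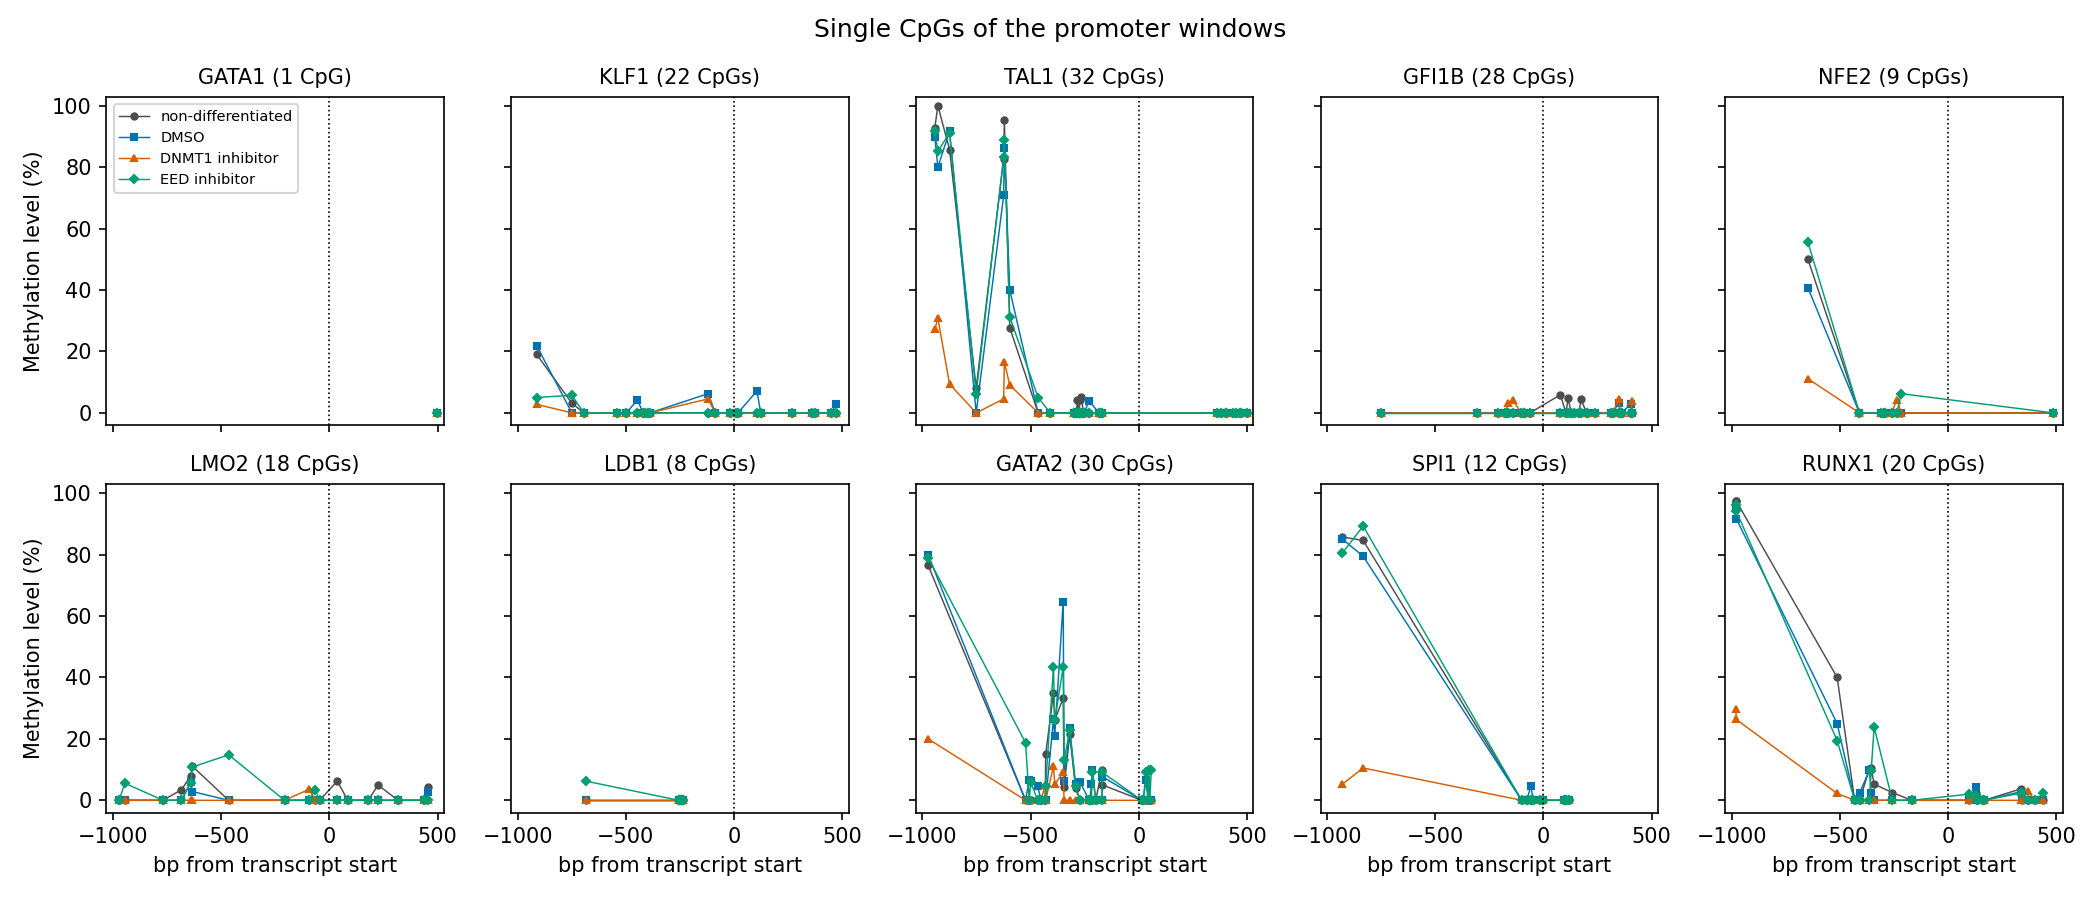
Methylation level in percent of each shared CpG against its distance in bp from the transcript start (dotted line), 1 panel per gene and 1 colour per library. CpGs near the starts lie at or close to 0 in all libraries, and the high values in TAL1, NFE2, GATA2, SPI1 and RUNX1 lie upstream and are mostly low only with the DNMT1 inhibitor. Some single CpGs also differ between DMSO and the EED inhibitor, in both directions. In RUNX1 that at -342 bp reads 0% in DMSO and 23.8% with the EED inhibitor (5.26% in non-differentiated cells), and that at -364 bp 9.76% and 0%. In the same order, the KLF1 CpG at -912 bp reads 21.9% and 5.00%, and the GATA2 CpG at -523 bp 0% and 18.8%.

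Over the 9 promoters with a shared CpG within 250 bp of the start, no library exceeded 3.33% there. These regions held 2 (NFE2) to 19 (GFI1B) shared CpGs, and the NFE2 interval reached 16.7% with the EED inhibitor. Related regulators from a list of 26 (cofactors and partners such as ZFPM1, MYB and BACH1) gave 23 tested promoters. Only 5 of these had the 25% in DMSO that a lower call needs, and 4 were called lower with the DNMT1 inhibitor, where 43.7% of all promoters were: BACH1, a repressor of globin genes, by -53.2 points, MAFK by -52.7, ERG by -52.6 and E2F4 by -26.0. The promoters of IKZF1 (0.316% in DMSO, 0.312% with the inhibitor) and LYL1 (0.375% and 0.280%) had the smallest differences. None of the 23 was called in either other comparison, with 6 at an unadjusted p under 0.05 for DMSO against non-differentiated cells (17.5% of all promoters) and 3 for the EED inhibitor (21.2%).

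Several members have other annotated starts, and these differed in methylation. A second RUNX1 start region 159.5 to 162 kb downstream, of the shorter isoforms, read at most 3.89% in any library over 3 start windows, while the start of the longest isoform, at -955 kb, read 73.4%, 72.6%, 21.4% and 69.5%. The outermost GFI1B start, at -33.1 kb, read 74.8%, 78.0%, 25.5% and 78.4%, and the one 7.98 kb downstream 31.4%, 24.9%, 1.99% and 31.0%. In GATA2 the 4 covered starts between 1.29 and 5.29 kb downstream did not exceed 0.741%, and the start at 11.3 kb read 80.5%, 80.3%, 10.5% and 77.4%. The other TAL1 start (2.45 kb downstream) read at most 0.440% and that of LMO2 (22.3 kb) at most 0.285%. Both other NFE2 starts lay between 6.06% and 8.53% in the cells without DNMT1 inhibitor, and that of LDB1 at 1.05%, 1.34%, 0% and 4.36%.

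Gene bodies varied far more among the members than promoters did. In DMSO the body of KLF1, the activator of adult beta-globin, was at 0.698% (interval 0.416% to 1.17%, 106 CpGs), and the body of SPI1 at 84.7% (interval 84.0% to 85.4%, 382 CpGs). The median of all 18804 bodies was 74.6%, and 0.580% of them lay under 10% in all of the non-differentiated, DMSO and EED inhibitor libraries, KLF1 among them. For the DNMT1 inhibitor, 8 of the 10 bodies were called lower, against 96.4% of all bodies. When reads were divided by the number of CpGs, GATA1 and TAL1, at differences of -35.4 and -35.5 points, were no longer called, which left 6 of 10 against 87.6% of all bodies. KLF1 and GATA2 were not called, with DMSO levels of 0.698% and 20.1% that were themselves under 25 points. With the EED inhibitor and between DMSO and non-differentiated cells 0 of 10 were called (background 0% in each direction). At adjusted p under 0.01 but smaller size, 4 of 10 passed in the comparison of DMSO with non-differentiated cells (TAL1, GATA2, SPI1 and RUNX1; 34.8% of all bodies) and 2 of 10 with the EED inhibitor (TAL1 and RUNX1; 17.6% of all bodies).

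For the red cell activators, the body of KLF1 read 0.525%, 0.698%, 0.190% and 0.419%. NFE2 (111 CpGs) read 47.7%, 48.7%, 6.96% and 48.1%, and GATA1 (16 CpGs over 206 to 237 reads) 35.02%, 39.3%, 3.88% and 35.2%. GATA1 kept 9.88% and NFE2 14.3% of their DMSO levels under the DNMT1 inhibitor, both below the lower quartile of all genes at 10% or more in DMSO (22.7%, with a median of 26.6% and an upper quartile of 30.5%). LMO2 at 18.4%, GATA2 at 17.9% and LDB1 at 19.5% were below it too, which made 5 of 9, while TAL1 at 25.6%, GFI1B at 26.2%, RUNX1 at 26.1% and SPI1 at 28.7% were near the median. The GATA1 share rests on a level of 3.88% with an interval of 1.98% to 7.47%. All of these 9 but SPI1 had DMSO levels below the 74.6% median of all bodies, and the part of the starting level in the share kept was not tested. KLF1 had almost no methylation in any library.

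The body of TAL1 (224 CpGs) read 43.3%, 47.7%, 12.2% and 41.7%. It was 4.32 points higher in DMSO than in non-differentiated cells (adjusted p 0.00012) and 5.98 points lower with the EED inhibitor than in DMSO (adjusted p 7.47e-08, both by Fisher's exact test). With each CpG counted equally these became 0.893 and -1.01 points. Over CpGs of at least 20 reads the first was -0.143 points. LMO2 (359 CpGs) read 45.3%, 44.3%, 8.13% and 44.1%, and LDB1 (118 CpGs) 63.0%, 62.4%, 12.1% and 59.7%. The LDB1 difference with the EED inhibitor was -2.69 points by reads and 0.385 points with equal weights. GFI1B (659 CpGs, including 33 kb upstream of the MANE start) read 61.0%, 60.6%, 15.9% and 60.2%. Within the MANE transcript it read 37.8%, 36.8%, 7.77% and 36.0%.

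GATA2 had the least methylated body after KLF1, at 17.7%, 20.1%, 3.59% and 18.0% over 303 CpGs. The 2.32 points between DMSO and non-differentiated cells became 0.0636 points with equal weights. Its difference of -16.5 points with the DNMT1 inhibitor was -27.3 points over CpGs of at least 20 reads, which would be called. SPI1 read 86.8%, 84.7%, 24.3% and 85.1%, the highest of the 10 in every library. RUNX1 spans 1217 kb by GENCODE, because of 1 isoform that starts far upstream, and its body read 59.7%, 58.2%, 15.2% and 57.5% over 10545 CpGs. The part within the MANE transcript read 84.1%, 81.5%, 24.6% and 81.4%, and the 954 kb before it 51.2%, 50.1%, 11.9% and 49.2%. The mean coverage was 36.8 to 41.3 reads in the first and 40.4 to 45.7 in the second, both above the 28.0 to 30.8 of all shared CpGs, and the part of this depth in the levels was not tested. Of the 26 related regulators, 21 bodies were called lower with the DNMT1 inhibitor (96.4% of all bodies) and 0 in the other comparisons (0% of all bodies). Among the rest, LYL1, HHEX and MYC were at 1.08%, 14.7% and 21.5% in DMSO and could not be called lower. CEBPA and GFI1, at 29.2% and 41.5% in DMSO, differed by -24.1 and -23.4 points, just under the size of a call.

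The members' loci were then divided into low-methylated stretches and the rest. A stretch was a run of at least 4 shared CpGs, no more than 1000 bp apart, whose level averaged with both neighbours was under 50% in the non-differentiated library, so low levels inside and high levels outside follow from the definition. Outside these stretches, the gene and its flanks were at 72.6% to 90.3% in DMSO in all 10 genes, and inside at 2.66% (GATA2) to 24.6% (RUNX1). The stretches held 53.2% of the shared CpGs of GATA2, 47.5% of KLF1 and 44.2% of LMO2, but 11.2% of LDB1 and 8.37% of SPI1. The remaining members lay between 29.4% (RUNX1) and 40.1% (NFE2), and the share over chromosomes 1 to 22 and X was 26.7%. With the DNMT1 inhibitor the level outside fell to between 16.1% (NFE2) and 27.4% (LDB1), and inside to between 0.485% (KLF1) and 4.03% (RUNX1). In each of the 10 genes a smaller part of the DMSO level was kept inside (9.52% to 18.6%) than outside (19.9% to 30.4%). This split was not made for the rest of the genome, so the contrast is not shown to be particular to these genes. The shares kept inside rest on levels near 0, where the part of incomplete conversion was not tested.

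**Figure D3:**
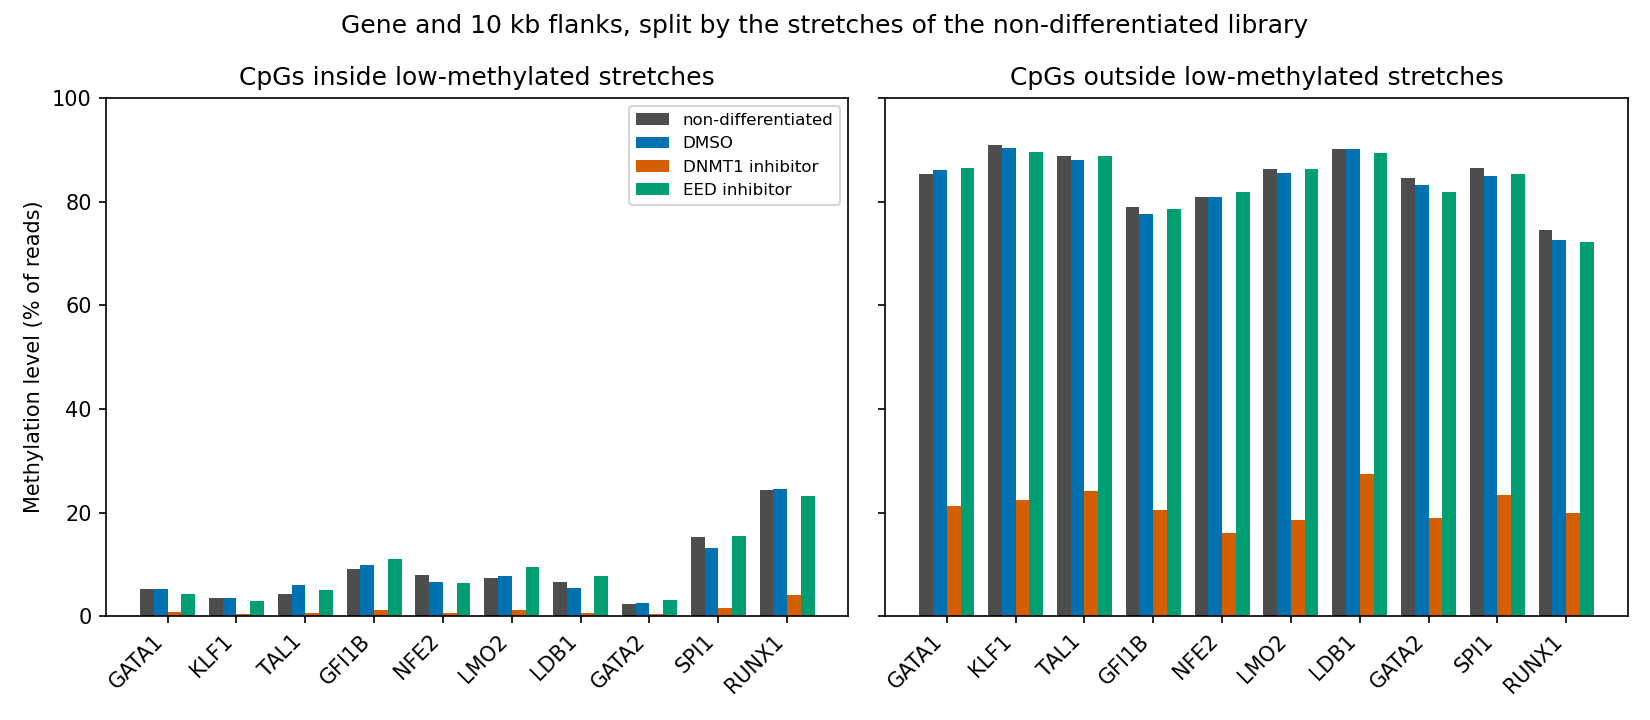
Methylation level in percent of reads for CpGs inside (left) and outside (right) the low-methylated stretches of each gene with its 10 kb flanks, 1 bar per library. Outside the stretches all genes lie between 72.3% and 91.0% except with the DNMT1 inhibitor, where the highest is 27.4%.

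The stretches numbered 448 in the non-differentiated library, of which 389 were in the RUNX1 locus. In DMSO there were 458 and with the EED inhibitor 467. Under the DNMT1 inhibitor there were 152, which was fewer than in non-differentiated cells in 6 genes (RUNX1 with 93, KLF1, GFI1B, NFE2, LMO2 and GATA2) and more in GATA1, TAL1, SPI1 and LDB1. With a limit of 30% in place of 50% they numbered 458 against 202 in non-differentiated cells. At 50% they covered 88.6% to 98.9% of 9 loci and 55.1% of that of GATA1, where 143 of 441 CpGs were shared. By shared CpGs they held 92.3% in GATA1 and 91.9% (LDB1) to 100% (GATA2) in the others. Over chromosomes 1 to 22 and X the stretches of this library held 96.5% of shared CpGs and numbered 371518. The genome-wide number was 718790 for non-differentiated cells, 734133 for DMSO and 751269 for the EED inhibitor. Fewer stretches and near-complete cover were therefore not particular to the members. Of the 448, 160 were called lower with the DNMT1 inhibitor, against 29.3% of all such stretches, and 0 higher (background 0.000278%). Without RUNX1, 7 of 59 were called lower. Most of these 59 could not be called, because their DMSO levels were below the difference that a call needs. The median in DMSO was 2.84% for the 13 that touched a promoter and 11.1% for the 46 others. With the DNMT1 inhibitor these medians were 0.375% and 1.16%. The share of 7 in 59 therefore does not tell how far these stretches responded. The count was 59 of 448 with reads divided by CpGs (3.34% of all stretches), 5 of 202 at a limit of 30% (3.35%), 45 of 181 with at least 8 CpGs (18.0%) and 20 of 328 unsmoothed (8.57%). With the EED inhibitor 0 of 448 were called lower (background 0.0339%) or higher (background 0.0179%), with 69 at an unadjusted p under 0.05 (14.3% of all such stretches). Differences from the non-differentiated library, which defined the stretches, were not tested.

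KLF1 lay whole inside 1 stretch of 4810 bp (136 CpGs), which read 1.77%, 1.80%, 0.233% and 1.33%. The NFE2 promoter was followed by a stretch of 4697 bp centred 4.44 kb downstream (50 CpGs) at 7.79%, 8.13%, 0.376% and 8.46%. A small one of 11 CpGs, 8.05 kb downstream of the GATA1 start, read 12.4%, 5.00%, 0% and 8.10%. In TAL1 a stretch of 4910 bp (129 CpGs) ran from the promoter into the gene at 2.17%, 2.77%, 0.289% and 2.13%, and the next, in intron 2 (18 CpGs), read 6.27%, 10.3%, 0.845% and 5.84%. In KLF1 and TAL1 the low block reached beyond the promoter window, as it did in GFI1B, LMO2 and GATA2 described below. The single shared CpG of the GATA1 promoter is too few for a stretch to be found there.

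LMO2 had 7 stretches that took up 38.9% of its locus in the non-differentiated library. One of 5561 bp held the MANE start and read 4.09%, 5.34%, 0.965% and 6.21%. Another of 4846 bp in intron 2 (52 CpGs) read 6.09%, 5.83%, 0.852% and 6.91%. In GFI1B a block of 7113 bp from the promoter into intron 1 (128 CpGs) read 0.814%, 0.903%, 0.257% and 1.29%. A smaller one in intron 2 (22 CpGs) read 19.8%, 12.3%, 1.11% and 21.5%, with an adjusted p of 0.0211 for the EED inhibitor. In LDB1 the largest outside the promoter (2836 bp, 18 CpGs) read 17.5%, 11.3%, 1.09% and 17.1%.

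GATA2 was covered by a stretch of 4361 bp over the promoter and intron 1 (173 CpGs; 1.73%, 1.80%, 0.375% and 2.07%) and one of 5042 bp centred in intron 3 (104 CpGs; 1.38%, 1.38%, 0.563% and 2.85%). The DNA between them held no shared CpG. In RUNX1 the largest, 7186 bp with 235 CpGs, lay 161 kb downstream over the second start region and read 2.70%, 2.92%, 0.339% and 2.70%. Within the MANE transcript there were 7 stretches, 2.68 per 100 kb, and in the part upstream of it 375, or 39.3 per 100 kb. In the non-differentiated library, which defined the stretches, these parts averaged 83.8% and 51.2%. The upstream level is close to the 50% limit of a stretch, and its part in the density was not tested. SPI1 had the smallest share of its shared CpGs in stretches, 8.37%: that of its promoter (22 CpGs) read 14.2%, 8.21%, 1.39% and 11.7%, and the largest other (12 CpGs, 30.7 kb downstream) 22.8%, 23.6%, 3.12% and 27.2%. Across the 9 genes other than RUNX1, the 13 stretches that touched a promoter (8 of a member, 5 of a neighbouring gene only) had a median of 3.64 CpGs per 100 bp and 2.84% methylation in DMSO, and the 46 others 1.62 CpGs per 100 bp and 11.1%.

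**Figure D4:**
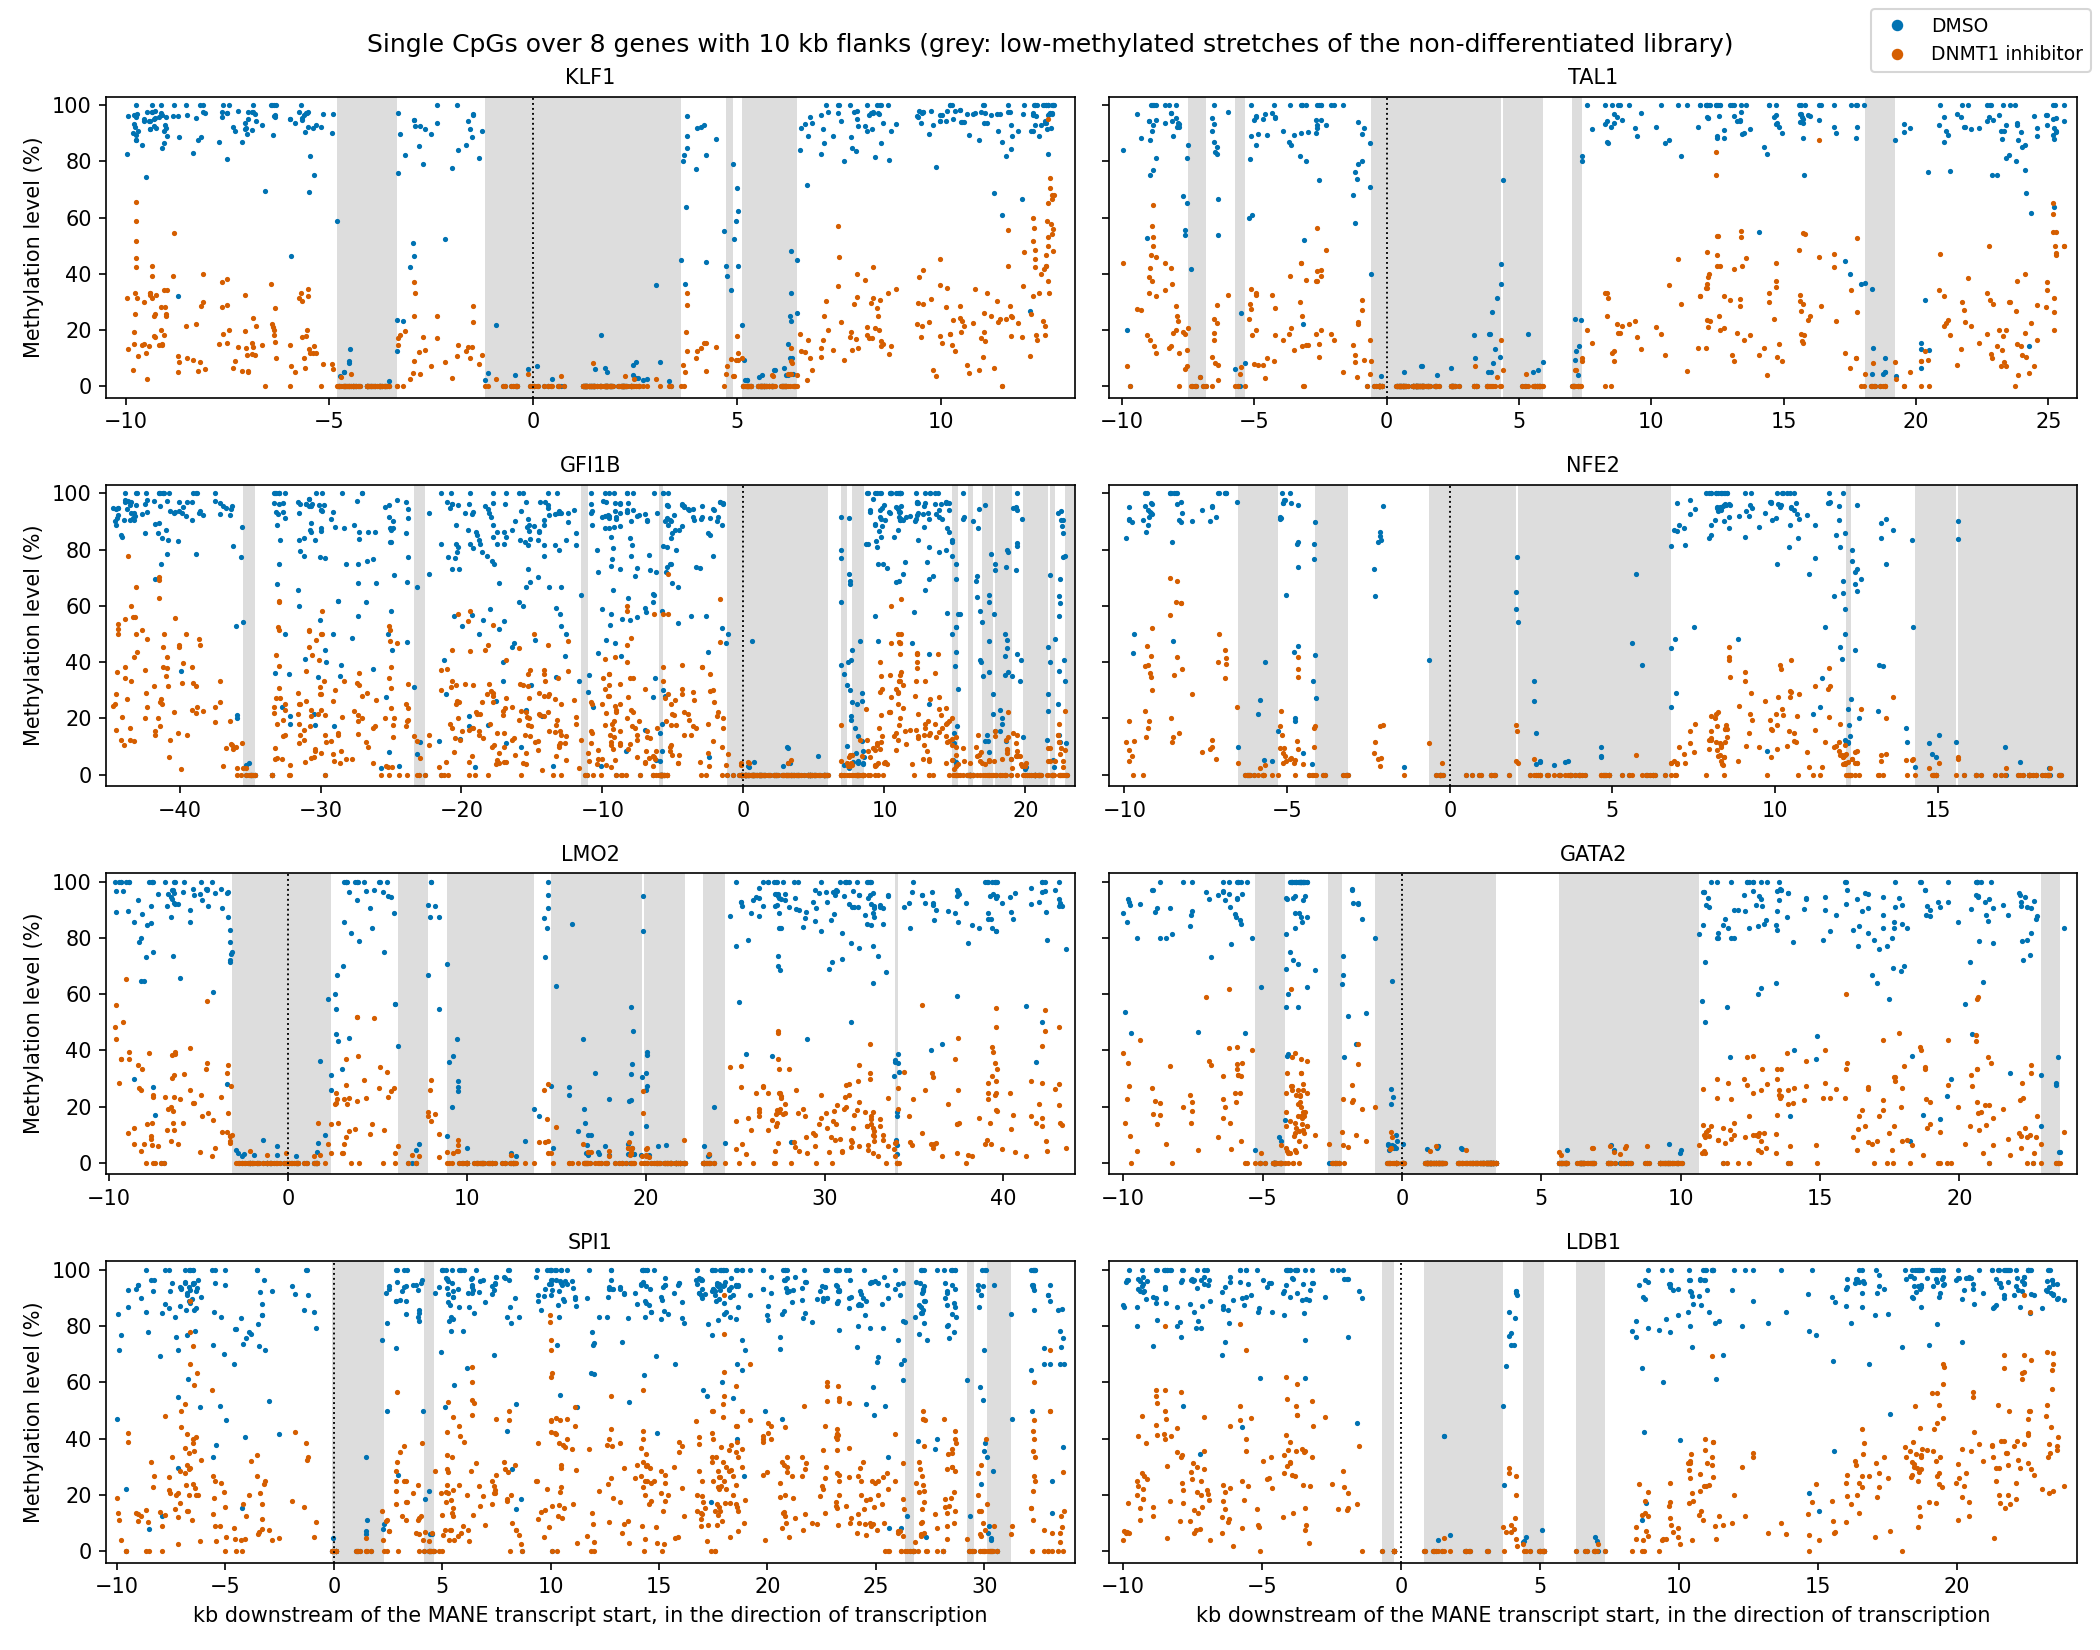
Methylation level in percent of each shared CpG in DMSO (blue) and with the DNMT1 inhibitor (orange, drawn on top) against distance in kb from the MANE start (dotted line), for 8 genes with their flanks, where grey marks low-methylated stretches of the non-differentiated library. In DMSO 85.1% of the CpGs in grey blocks are under 10% and 77.1% of those elsewhere over 80%, and with the inhibitor levels outside the blocks are far lower.

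Windows of 1 kb were used to look for smaller changes across the same loci, 1525 in all and 342 without RUNX1. In the DNMT1 inhibitor library 1278 were called lower, against 81.3% of all windows, and 263 of the 342. The median difference per gene lay between -41.2 points (NFE2) and -60.8 points (LDB1). Between DMSO and non-differentiated cells 0 of 1525 were called lower (background 0.000864%) or higher (background 0.000288%), with 160 at an unadjusted p under 0.05 (8.31% of all windows). With the EED inhibitor 0 were called lower (background 0.0266%) or higher (background 0.00592%), with 202 at an unadjusted p under 0.05 (12.6% of all windows).

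Below 25 points, 4 of the 1525 windows had an adjusted p under 0.01 with the EED inhibitor (0.262%, where 0.257% of all windows did). One lay in intron 2 of LMO2, 18.6 kb downstream of the start (chr11:33873001-33874000), and read 1.04%, 1.24%, 1.62% and 11.8% over 192 to 254 reads, 10.6 points above DMSO (adjusted p 0.00121, Fisher's exact test). Of its 7 CpGs, 4 were higher than in DMSO and 0 lower, and the highest read 47.4%. The second lay in intron 3 of GATA2, 7.7 kb downstream (chr3:128485001-128486000), and read 0.754%, 0.551%, 1.11% and 5.76%, a difference of 5.21 points (adjusted p 0.0086), with 9 of 20 CpGs higher and 1 lower. Both were low in the other 3 libraries. The remaining 2 windows lay upstream of the MANE start of RUNX1 and were lower by -14.5 and -12.5 points. When reads were divided by the number of CpGs, to allow for reads that span several CpGs, the adjusted p of each of the 4 was 1.

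**Figure D5:**
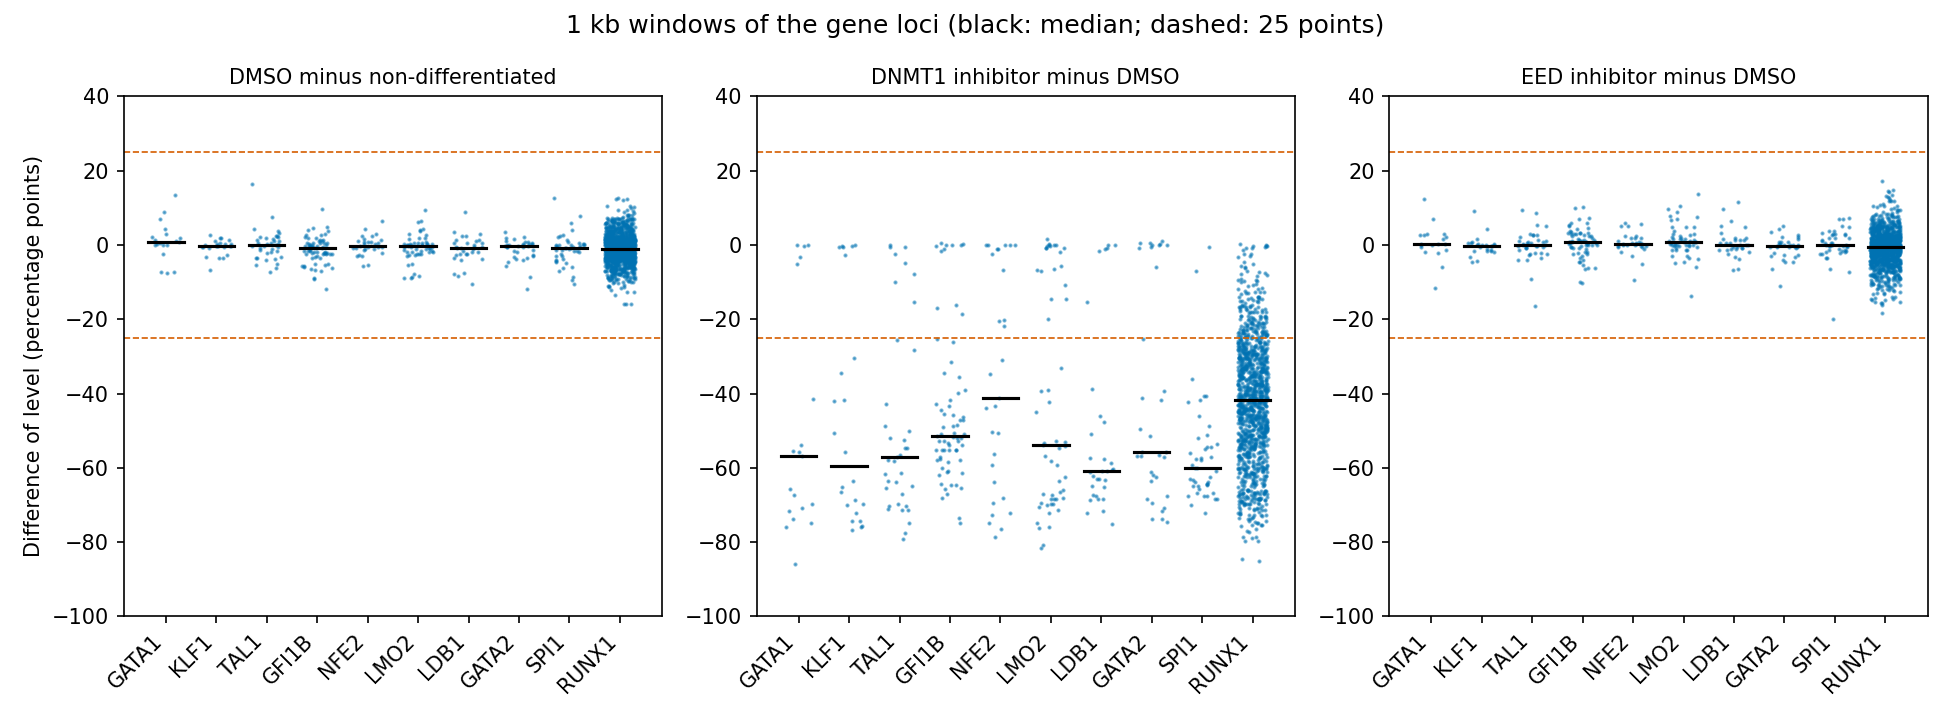
Difference of methylation level in percentage points for each 1 kb window of the 10 loci, 1 panel per comparison, with 1 dot per window, a black bar for the median of each gene and dashed lines at 25 points. In the panels for DMSO minus non-differentiated cells and for the EED inhibitor all windows lie within 25 points of 0, and with the DNMT1 inhibitor most lie below -25.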

How the data were processed

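Whole-genome bisulfite libraries of 4 HUDEP-2 groups were read from 1 table each, deposited by the authors with the columns of a methylKit call table, per the file headers: for each CpG a read count (coverage) and 2 columns that give C reads and T reads in percent. In the deposited tables the strands of a CpG are merged and the coverage count is at least 10. The submitters' processing notes name hg38, Trim Galore 0.6.7, cutadapt 4.1, Bismark, Bowtie2 2.1.0 and methylKit, with no settings. How duplicates were removed is not given in the sources used here, and conversion was not measured here, so its part in levels near 0 was not tested.

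Methylated reads were recovered by rounding coverage times percent, which gave whole reads for 100% of lines. Levels are methylated over all reads of the CpGs listed in all 4 tables, so deeper CpGs weigh more. Genes, MANE starts and bounds came from GENCODE 44. A gene body is the gene without its promoter window, and tests needed 5 shared CpGs (3 in a window of 1 kb). Fisher's exact tests, Benjamini-Hochberg adjustment and the stretch search were written in Python 3.11.15 (numpy 2.4.6, scipy 1.17.1) and tested on simulated data. The 10 members, the 26 related regulators and the marker list were chosen with earlier results of these data known. Named in the text are all members, called related regulators with the 4 largest and 2 smallest differences for the DNMT1 inhibitor, and for each member the stretch with the most CpGs outside promoters. Related regulators whose bodies were not called with the DNMT1 inhibitor are named too. Windows under 25 points, single CpGs and printed sequences were picked after their values were seen. Alternatives changed the thresholds, promoter and window size, minimum coverage, weighting, CpG set and stretch rule. Exclusion of RUNX1 and MANE bounds were added after the data were seen.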

Additional observations from a re-analysis of the deposited data

How the results depend on the processing

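No paired analysis was possible because each group has 1 library. Depth limits some promoters: those of GATA1, NFE2 and LDB1 rest on 1, 9 and 8 shared CpGs. In TAL1, GATA2 and SPI1, 32 of 89, 30 of 89 and 12 of 31 CpGs were shared. Changes of sign, listed where the interval of the reported or of the other value excludes 0, were 0.526 points for the SPI1 promoter (DMSO minus non-differentiated, 250 bp on either side), -15.2 for the GFI1B promoter (DNMT1 inhibitor, from 2000 bp upstream), -0.143 for the TAL1 body (DMSO minus non-differentiated, at least 20 reads), and 0.045 and 0.385 for the GATA2 and LDB1 bodies (EED inhibitor, equal weights). The SPI1 and TAL1 values have intervals that include 0 (-2.29 to 2.92 and -3.15 to 2.87), and equal weights give none. Promoters called lower with the DNMT1 inhibitor became 3 at 10 points (68.2% of all promoters) and 4 (KLF1, SPI1, RUNX1 and LDB1) from 2000 bp upstream. Stretches called lower with it became 388 at 10 points (87.1% of all stretches), 59 with reads divided by CpGs, 5 at a stretch level of 30%, 45 with 8 CpGs, 20 unsmoothed and 7 without RUNX1, and windows 263 without RUNX1. At 10 points the EED inhibitor gave 2 lower and 1 higher windows (0.166% and 0.0591% of all) and 2 lower stretches (0.295%). Stretches per library were 202, 203, 458 and 217 at 30%, and 181, 187 and 202 (non-differentiated, DMSO, EED inhibitor) with 8 CpGs. The bodies of GATA1 and TAL1 lost their call with the DNMT1 inhibitor when reads were divided by CpGs, at the same differences. Apart from changes that follow from another threshold, CpG set or number of units by construction, the cause was not tested. In all, 19 counts moved beyond 1.5 times the reported value or away from 0, and the other 137 did not. Most of these 137 were counts of 0 that stayed 0.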

Other observations

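Some low-methylated stretches in the 10 kb flanks of the members touch promoters of neighbouring genes. That of HDAC6, a deacetylase gene next to GATA1, read 2.28%, 4.48%, 0.858% and 2.02% over 30 CpGs, for non-differentiated cells, DMSO and the inhibitors of DNMT1 and of EED. Beside KLF1, the stretch of 71 CpGs at DNASE2, which encodes a lysosomal nuclease that digests the DNA of expelled red cell nuclei, read 4.44%, 3.98%, 0.822% and 3.93%, and that at GCDH (64 CpGs) 2.99%, 2.84%, 0.122% and 2.74%. Near NFE2, a stretch of 7185 bp with 167 CpGs, which begins beyond the flank and runs into it, touched the promoters of CBX5 and HNRNPA1 and read 1.12%, 0.977%, 0.142% and 0.887%. A small stretch of 4 CpGs between KLF1 and DNASE2, at the DNASE2 promoter, differed most between libraries among these: it read 43.1%, 46.2%, 6.15% and 29.9%, where the difference of -16.3 points with the EED inhibitor did not pass Fisher's exact test (adjusted p 0.162).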
